A study of Homo sapiens with 6 samples.

Results

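RBM3 and CIRBP encode a pair of small RNA-binding proteins, each built of a single RNA recognition motif followed by a glycine-rich tail. Both genes were found by their symbols, and they are 2 of the 63140 genes counted. Both were among the 16754 genes with enough counts to be tested. They were chosen with the response of these same cultures to GSK-A1 already known, because RBM3 was among the clearest decreases in the series and CIRBP is its closest relative. The difference between treated and control cultures in these 2 genes is therefore given as a description, with its error and without a test.

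RBM3 and CIRBP are known as the main cold-inducible RNA-binding proteins of mammals: their mRNA and protein rise when cells are cooled by a few degrees and fall when cells are warmed. CIRBP mRNA also follows the daily rhythm of body temperature, and the CIRBP protein helps to shape the mRNA of the clock gene CLOCK. RBM3 is best known for keeping protein synthesis and synapses going in cooled cells. RBM3 mRNA can include a poison exon that sends the transcript to nonsense-mediated decay, and cooling favours skipping of that exon.

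The data are RNA sequencing counts from HEK293, an established line of human embryonic kidney origin. There were 3 libraries from cultures given the solvent dimethyl sulfoxide (DMSO) and 3 from cultures given GSK-A1 at 100 nM for 24 h, and the labels call them biological replicates. The protocol gives the time for the inhibitor only, and the lane label was the same for all 6 libraries. GSK-A1 is an inhibitor of the lipid kinase PI4KA, the main source of the phosphoinositide PI4P in the plasma membrane. Both groups were the same line, grown in serum-containing DMEM with antibiotics, and per the labels kept at 37 °C, with the cells confluent when treated. No cooled or warmed culture is among them, the model is 1 cell line with 1 dose and 1 time, and no protein was measured. In whole-culture RNA, fewer cells carrying a transcript and less of it per cell cannot be told apart.

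Libraries held 33040178 to 47777233 counts. GSK-A1 replicate 2 stood apart from the other treated libraries: the chi-square statistic per gene was 10.98 and 15.52 for its pairs with replicates 1 and 3 of GSK-A1, against 2.88 for those 2 libraries with each other. Values without it are given for the pair and for only some of the other genes and lists. All 7 HEK293 markers had counts in every library, led by NEFL and VIM, although NEFM was at most 0.381 CPM (counts scaled to a common library size). The 7 together held 1991 to 2057 CPM with DMSO and 2108 to 2317 CPM with GSK-A1, a sum made up mostly of NEFL and VIM. Single markers moved apart: edgeR called VIM higher (log2 change 0.17 ± 0.04, adjusted p = 0.00423) and PAX2 lower (-0.43 ± 0.12, 0.0177), and their part in the results was not tested. The 6 markers of blood, liver, endothelium and fibroblasts summed to 6.81 to 7.75 CPM with DMSO and 5.05 to 7.03 CPM with GSK-A1, nearly all of it COL1A1.

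RBM3 (ENSG00000102317) lies on the forward strand of chromosome X at chrX:48574449-48579066, and CIRBP (ENSG00000099622) on the forward strand of chromosome 19 at chr19:1259384-1274880, in GENCODE release 29 on GRCh38. The annotation gives RBM3 11 transcripts, of which 3 are protein-coding. None of those of RBM3 is marked as a target of nonsense-mediated decay. CIRBP has 46 transcripts, including 22 that code for protein, 13 marked as targets of nonsense-mediated decay and 10 with a retained intron. The deposited counts add all transcripts of a gene together, so the poison exon of RBM3 and the decay forms of CIRBP could not be read separately. Of the 50-base stretches of the longest coding transcript, 1.09% for RBM3 and 0% for CIRBP also occurred in the transcripts of another gene.

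The RefSeq sequences around the start sites are printed because both genes were lower in the same cultures. Each runs from 250 bases before to 50 bases after the start, 5′ to 3′ on the forward strand of GRCh38.p14. RBM3 is at chrX:48574234-48574533, where capitals mark matches to GAANNTTC, the core of a heat shock element, and to CCGGAA, the motif of ETS factors. CIRBP is at chr19:1269082-1269381, where capitals mark matches to GGGCGG, the GC box bound by SP1. Matches on either strand are marked, and matches that overlap run together.
RBM3: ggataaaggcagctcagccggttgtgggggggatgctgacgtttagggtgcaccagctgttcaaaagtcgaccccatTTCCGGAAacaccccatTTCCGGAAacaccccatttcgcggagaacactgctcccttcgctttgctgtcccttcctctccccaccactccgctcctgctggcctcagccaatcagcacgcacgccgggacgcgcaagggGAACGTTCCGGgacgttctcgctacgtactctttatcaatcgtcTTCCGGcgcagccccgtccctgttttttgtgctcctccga
CIRBP: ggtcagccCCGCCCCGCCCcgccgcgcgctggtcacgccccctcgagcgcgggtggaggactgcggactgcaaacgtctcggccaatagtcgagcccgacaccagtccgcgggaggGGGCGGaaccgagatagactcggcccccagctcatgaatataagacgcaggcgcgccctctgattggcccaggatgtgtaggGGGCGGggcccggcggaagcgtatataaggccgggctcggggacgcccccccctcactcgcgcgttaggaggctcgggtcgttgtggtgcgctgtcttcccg

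The CIRBP window is the richer in G and C, at 70.3% against 59.3% for RBM3, where the median of 35116 RefSeq promoters of 300 bases was 58.7%. RBM3 had 6 matches to CCGGAA counted over both strands, which a self-complementary copy gives on each, and CIRBP had 0, while 17.2% of the promoters held at least 1. GAANNTTC occurred 1 time in RBM3, starting 34 bases before the start site and overlapping a CCGGAA match, and 0 times in CIRBP, against 6.77% of promoters with a match. GGGCGG occurred 4 times in CIRBP and 0 times in RBM3, and 45% of promoters held it. The mild cold element TCCCCGCC, described for CIRBP in cooled cells, was in neither window and in 8.52% of promoters. Each motif was searched on both strands, and a match describes letters only.

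RBM3 was lower in every treated library. Its counts were 8167, 7485 and 5554 in DMSO replicates 1 to 3 and 5665, 3902 and 4169 in GSK-A1 replicates 1 to 3. In CPM, with library totals adjusted for composition, these were 170.3, 164.5 and 167.6 with DMSO and 121.5, 114.3 and 115.6 with GSK-A1. The 2 groups did not overlap, with a gap of 42.99 CPM between the lowest control and the highest treated library. The SD within a group was 2.90 CPM with DMSO and 3.85 CPM with GSK-A1 (n = 3). RBM3 was chosen as a clear decrease, so a gap wider than this spread is no test of the change. GSK-A1 replicate 2, which stood apart in other genes, was the lowest library here but close to GSK-A1 replicate 3. The log2 fold change (log2 change hereafter) was -0.51 ± 0.04 (SE), so treated cultures held 0.70 of the control level, and it was -0.49 without GSK-A1 replicate 2.

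CIRBP was lower too, by a smaller step. Its counts were 6717, 7000 and 4918 with DMSO and 5913, 3995 and 4730 with GSK-A1. In CPM these were 140.1, 153.9 and 148.4 with DMSO (147.5 ± 6.9, SD, n = 3) and 126.9, 117.0 and 131.2 with GSK-A1 (125.0 ± 7.3). All treated libraries were below all controls, but by a gap of only 8.88 CPM, little more than the SD within a group. The log2 change was -0.24 ± 0.05 (SE), or 0.85 of the control level. GSK-A1 replicate 2 was again the lowest library, and without it the change was -0.19.

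**Figure D1:**
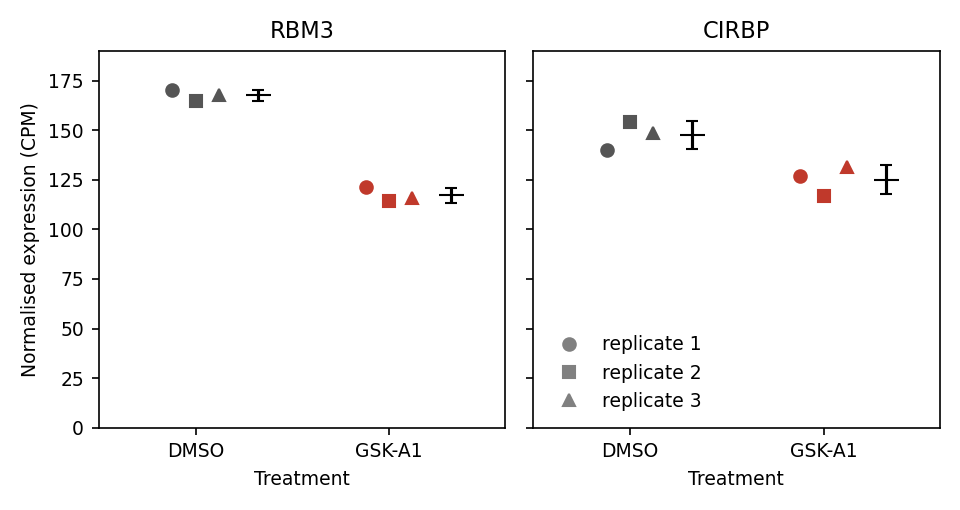
Normalised expression (CPM, linear axis from 0) of RBM3 (left) and CIRBP (right) in each library, DMSO in grey and GSK-A1 in red, with the marker shape giving the replicate number and the bar the mean ± SD of 3 libraries. RBM3 falls into 2 tight clusters, 164.5 to 170.3 and 114.3 to 121.5 CPM, whereas CIRBP treated libraries reach 131.2 CPM, near the lowest control at 140.1.

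Over all genes, edgeR called 22.9% at an adjusted p under 0.05, 12% higher and 10.9% lower with GSK-A1, while 20.4% of genes had all treated libraries below all controls and 20.2% had them above. Non-overlap was thus frequent, and nothing is read from it for genes chosen on this contrast. By size, 4.32% of tested genes had a more negative log2 change than RBM3 and 15.7% a more negative one than CIRBP, where the median over all genes was -0.01. Among the 2732 genes within 2-fold of the mean CPM of RBM3, only 1, the zinc finger gene ZNF503, named after its value was seen, had a more negative fold change. For CIRBP the number was 56 of 2885. Because RBM3 was chosen as one of the clearest decreases, an extreme rank by size follows from that choice. These ranks are descriptions only.

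**Figure D2:**
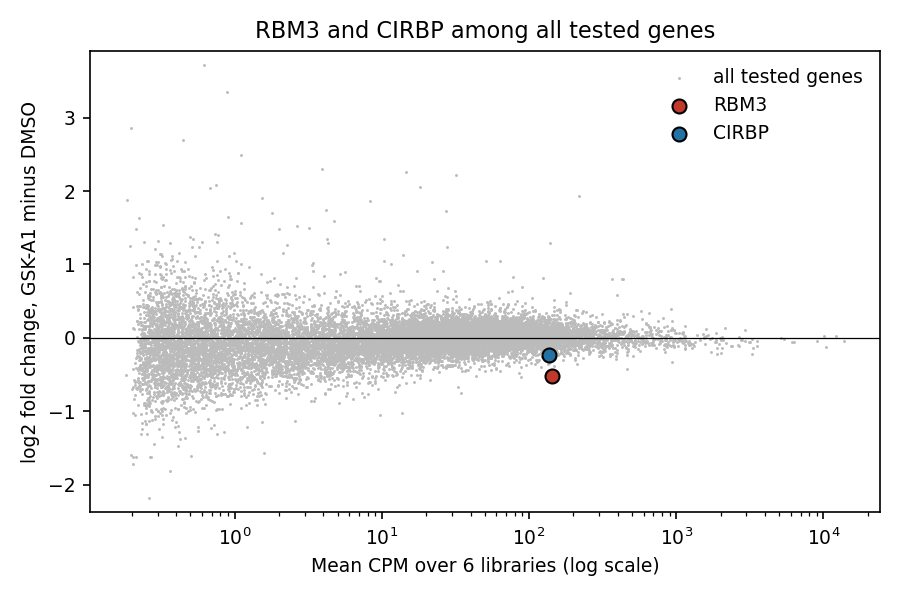
Log2 fold change (GSK-A1 minus DMSO) against mean CPM on a log axis for all 16754 tested genes, each a grey point, with RBM3 in red and CIRBP in blue. RBM3, at -0.51, lies at the lower edge of the cloud for genes of its level, and CIRBP, at -0.24, lies nearer its body. RBM3 was chosen as a clear decrease, so its place is a description only.

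The balance between the pair shifted within libraries. The ratio of RBM3 to CIRBP counts needs no library scaling, and it was 1.22, 1.07 and 1.13 in DMSO replicates 1 to 3 and 0.958, 0.977 and 0.881 in GSK-A1 replicates 1 to 3. RBM3 gave more counts than CIRBP in each control and fewer in each treated library. The mean log2 ratio was 0.18 ± 0.09 (SD, n = 3) with DMSO and -0.09 ± 0.08 with GSK-A1, a difference of -0.28 that was -0.31 without GSK-A1 replicate 2. Since the pair was chosen with this contrast known, and RBM3 for its decrease, this difference too has no test.

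**Figure D3:**
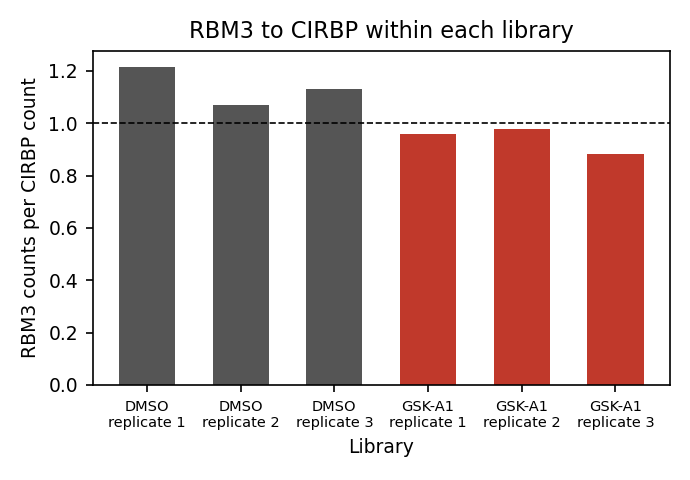
Counts of RBM3 per count of CIRBP in each library, with the bars starting at 0 and the dashed line at equal counts. The 3 DMSO bars (grey) stand at 1.07 to 1.22 and the 3 GSK-A1 bars (red) at 0.881 to 0.977.

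Which gene is the more abundant depends on the length used. On the scale of counts per base of the longest coding transcript, 2162 bases for RBM3 and 1835 for CIRBP, RBM3 stood at 0.908 to 1.03 times the level of CIRBP in control libraries and at 0.748 to 0.829 times with GSK-A1. Over all annotated exons merged, 3731 bases for RBM3 and 6368 for CIRBP, RBM3 had the higher level, with 44.9 CPM per kb against 23.2 for CIRBP in DMSO and 31.4 against 19.6 in GSK-A1. On the latter scale RBM3 was above 95.0% and CIRBP above 88.6% of the 16101 tested genes with a known length in DMSO cultures, so both were abundant at 37 °C.

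Genes around the pair were read because strand handling in the counting is not given in the sources used here. CIRBP-AS1 (ENSG00000267493), a noncoding gene on the opposite strand across the RefSeq start of CIRBP, shares 4 exonic bases with it in the annotation and was counted at 5.62% to 6.997% of the CIRBP count. It had 9.80, 8.84 and 8.93 CPM with DMSO and 8.003, 7.91 and 7.38 CPM with GSK-A1, with no overlap between groups. It fell, with a log2 change of -0.24 ± 0.08 (SE, edgeR adjusted p = 0.0308), the same size as the change of CIRBP. That call was lost without any 1 library other than GSK-A1 replicate 2 (edgeR adjusted p 0.0557 to 0.149) and with DESeq2 (0.0910). MIDN, which ends upstream of the first CIRBP exon on the same strand and encodes the protein midnolin, was looked at after its values were seen. It went from 177.6 ± 1.5 to 153.3 ± 7.4 CPM (SD, n = 3), a log2 change of -0.21 ± 0.04 (edgeR adjusted p = 0.00124). The MIDN change was -0.17 without GSK-A1 replicate 2. FAM174C, downstream of CIRBP and also chosen after its values were seen, was at 28.1 ± 1.4 and 26.1 ± 1.6 CPM (-0.11 ± 0.06, edgeR adjusted p = 0.197). The noncoding gene ENSG00000204620, opposite the RBM3 start, shares 2.55% of the exonic length of RBM3 and held only 19 to 41 counts per library.

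The genes whose profile over the 6 libraries was most like that of each member were found by the root mean square difference of centred log2 CPM, among 9824 other genes with a symbol and a mean of at least 10 CPM. For RBM3 these were NID2 (nidogen 2, a basement membrane protein), UCP2 (a mitochondrial carrier), PYCR3 (a proline synthesis enzyme), ZNF503-AS2 and SLC2A4RG, at 0.03 to 0.05 log2 units. Their log2 changes ran from -0.54 to -0.44, and NID2, the nearest, went from 21.5 to 15.1 CPM. For CIRBP they were PAN2 (a subunit of a poly(A) nuclease), REXO5 (an RNA exonuclease), C14orf132, LIMK2 (a kinase acting on the actin regulator cofilin) and LINC00205, at 0.01 to 0.03 log2 units, with fold changes of -0.27 to -0.23. PAN2 matched CIRBP in level as well, with 135.3 CPM in DMSO and 115.7 in GSK-A1. The members were not near neighbours of each other, at 0.16 log2 units: CIRBP ranked 440 in likeness to RBM3, and RBM3 ranked 4996 in likeness to CIRBP. Because these genes were picked for their likeness, their own changes are not evidence of a link.

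The structural relatives of the pair, proteins with RNA recognition motifs and mostly glycine-rich tails, had small fold changes. This list and those below were chosen with earlier results of these data known, so their shares of calls are descriptions only. Of 12, edgeR called 1 higher and 3 lower, or 33.3% against the background of 22.9%, with a median log2 change of -0.05 against -0.01 for all genes. HNRNPA0 went from 365 ± 8 to 332 ± 13 CPM (SD, n = 3; -0.14 ± 0.04, edgeR adjusted p = 0.0118), and HNRNPDL (-0.11 ± 0.04, 0.0297) and HNRNPD (-0.12 ± 0.04, 0.0398) fell by similar steps. RBMXL1, an intronless copy of RBMX whose reads could be split with it, rose by 0.16 ± 0.05 (0.0405). Without GSK-A1 replicate 2 these 4 changes were -0.17, -0.14, -0.16 and 0.11, in the same order. RBMX itself, a splicing regulator on the X chromosome like RBM3, stood at 526.5 ± 7.0 and 515.2 ± 13.9 CPM (-0.03 ± 0.03, 0.536). None of the 12 had a log2 change as negative as that of CIRBP. The count of 4 was fragile: it was 0 without DMSO replicate 1 or GSK-A1 replicate 1, 1 without replicate 2 or 3 of DMSO or replicate 3 of GSK-A1, and 7 without GSK-A1 replicate 2. Over all genes, calls numbered 2163, 2213 and 2206 without DMSO replicates 1, 2 and 3. They numbered 2674, 4890 and 3805 without GSK-A1 replicates 1, 2 and 3, against 3835 with all libraries. With all libraries, the HNRNPD call was also lost under RLE factors (edgeR adjusted p = 0.0592) and with DESeq2 (0.0700), that of HNRNPDL without a count filter (0.0572), and that of RBMXL1 under upper-quartile factors (0.111) and library totals only (0.0567).

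Proteins with a cold shock domain share the name of the response but belong to another fold. Of 8 listed, 6 were tested, and edgeR called 1 higher and 0 lower (16.7% against 22.9% of all genes), with a median log2 change of 0.06. LIN28B, which blocks maturation of let-7 microRNAs, had 113.9, 105.8 and 110.0 CPM with DMSO and 130.8, 143.4 and 129.7 CPM with GSK-A1, and rose by 0.29 ± 0.04 (SE, edgeR adjusted p = 2.74e-04). Its rise was 0.25 without GSK-A1 replicate 2. YBX1, the most abundant of the list and a general mRNA-packaging protein, was at 1137 ± 10 and 1158 ± 7 CPM (SD, n = 3; 0.03 ± 0.03, edgeR adjusted p = 0.553). Without GSK-A1 replicate 3, or with the replicate number as a block, 2 were called. Calls over all genes were 3805 and 4127 in these settings, against 3835.

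Genes reported to control the pair moved in both directions. Of 22 members, edgeR called 5 higher and 3 lower (36.4% against 22.9% of all genes), with a median log2 change of 0.04. The count was 5 without replicate 1 or 3 of DMSO or replicate 1 of GSK-A1, and 11 without GSK-A1 replicate 2. Over all genes, 3835 calls became 2163, 2206, 2674 and 4890 in these settings, in the same order.

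Upstream of transcription, SP1, a transcription factor reported to bind the CIRBP promoter, had 192.3, 197.5 and 206.8 CPM with DMSO and 225.7, 222.1 and 224.9 CPM with GSK-A1. It rose by a log2 change of 0.17 ± 0.04 (SE, edgeR adjusted p = 0.00300). The receptor kinase NTRK2, through which growth factor signals raise RBM3 in neurons, stood at 2.80 ± 0.16 and 3.44 ± 0.25 CPM (SD, n = 3; 0.30 ± 0.11, edgeR adjusted p = 0.0685). TRPV4, a temperature-gated channel, was barely counted, at 0.30 and 0.19 CPM, and its log2 change of -0.60 ± 0.40 was not called (0.303).

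Among splicing genes linked to temperature, HNRNPH1, which represses the RBM3 poison exon in the cold, had 560.5, 536.5 and 546.6 CPM with DMSO and 505.3, 489.2 and 510.1 CPM with GSK-A1. It fell by 0.13 on the log2 scale (SE 0.03, edgeR adjusted p = 0.0115), a call that did not survive leaving out replicate 1 (0.0706) or replicate 3 (0.0586) of DMSO, or replicate 1 of GSK-A1 (0.0507). CLK1, a kinase of splicing factors that is more active at lower temperature, rose from 29.3 ± 0.6 to 35.04 ± 0.34 CPM (SD, n = 3; 0.26 ± 0.05, edgeR adjusted p = 0.00106). Its relative CLK4 was at 17.6 ± 0.2 and 18.3 ± 0.3 CPM (0.06 ± 0.06, 0.489). SRSF5, a splicing factor whose mRNA responds to mild cooling, had 125.3, 121.4 and 123.8 CPM with DMSO and 101.9, 90.0 and 109.4 CPM with GSK-A1 (-0.30 ± 0.06, edgeR adjusted p = 0.00226). It was the only called control with a more negative fold change than CIRBP, and its log2 change was -0.22 without GSK-A1 replicate 2.

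Of the factors of nonsense-mediated decay described here, the route that removes RBM3 mRNA with its poison exon, only SMG6, the endonuclease, was called. It went from 64.1 ± 1.1 to 58.0 ± 1.7 CPM (SD, n = 3; -0.14 ± 0.04, edgeR adjusted p = 0.0208), and the call was lost without any 1 library other than GSK-A1 replicate 2 (edgeR adjusted p 0.0631 to 0.0983). The helicase UPF1 was at 240.9 ± 1.8 and 230.9 ± 2.8 CPM (-0.06 ± 0.03, 0.198), and was called lower under upper-quartile factors (-0.10, edgeR adjusted p = 0.0318). UPF2, UPF3B, SMG1 and SMG5 had log2 changes between 0.03 and 0.11 and were not called. Without GSK-A1 replicate 2, SMG1 (0.08, edgeR adjusted p = 0.0451) and SMG5 (0.15, 2.90e-04) were called higher.

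Among genes acting on the proteins, TNPO1, the importin that carries CIRBP into the nucleus, had 320.3, 325.1 and 323.9 CPM with DMSO and 367.2, 407.1 and 361.4 CPM with GSK-A1. It rose by 0.23 ± 0.04 (SE, edgeR adjusted p = 0.00106), and by 0.18 without GSK-A1 replicate 2. TNPO3, a related importin, was not called (0.09 ± 0.04, 0.0843) except without GSK-A1 replicate 2 (0.12, 0.00363). PRMT1, which methylates the arginines of the CIRBP tail, stood at 232.5 ± 10.1 and 221.1 ± 11.9 CPM (SD, n = 3; -0.07 ± 0.04, 0.253). For casein kinase 2, which phosphorylates CIRBP, the catalytic subunits CSNK2A1 (0.15 ± 0.04, 0.00706) and CSNK2A2 (0.12 ± 0.04, 0.0337) rose, and the regulatory subunit CSNK2B was not called (-0.07 ± 0.06, 0.390). The CSNK2A2 call was lost without any DMSO library or GSK-A1 replicate 1 (edgeR adjusted p 0.102 to 0.117), with upper-quartile factors (0.139) or with library totals only (0.0531). GSK3A and GSK3B, the paralogous glycogen synthase kinases, had log2 changes of 0.02 and 0.03 (0.817 and 0.657) that were negative under upper-quartile factors.

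Of 10 RNAs and partners reported for the 2 proteins, edgeR called 2 higher and 1 lower (30.0% against 22.9% of all genes), with a median log2 change of 0.06. CLOCK, called higher, is also counted among the circadian clock genes below. Without GSK-A1 replicate 2, 4 of the 10 were called, while calls over all genes went from 3835 to 4890. RTN3, whose translation RBM3 promotes in cooled neurons, had 166.7, 172.8 and 167.9 CPM with DMSO and 178.4, 195.3 and 175.0 CPM with GSK-A1, and its change of 0.11 ± 0.04 (SE) missed the threshold (edgeR adjusted p = 0.0650). With the replicate number as a block (0.0344), without a count filter (0.0355) or without GSK-A1 replicate 3 (0.0250) it passed. TERT, the telomerase subunit, had 4.36, 4.48 and 4.41 CPM with DMSO and 2.94, 2.67 and 3.36 CPM with GSK-A1. It fell by 0.56 on the log2 scale (SE 0.11, edgeR adjusted p = 0.00160). CXCL8, an inflammatory chemokine whose mRNA RBM3 can stabilise, rose by 1.29 ± 0.33 (0.00989) but from 0.21 to 0.52 CPM, and the call was lost without DMSO replicate 1 (0.0708) or GSK-A1 replicate 1 (0.0529).

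The stress targets bound by CIRBP were not called: TXN at 241.1 ± 5.6 and 246.5 ± 6.0 CPM (SD, n = 3; edgeR adjusted p = 0.558), RPA2 at 128.7 ± 2.5 and 122.5 ± 4.1 CPM (0.201), and ATR at 52.0 ± 1.1 and 52.0 ± 2.2 CPM (0.998). RPA2 was called lower under upper-quartile factors (-0.11, edgeR adjusted p = 0.0480). ELAVL1, the RNA-stabilising partner HuR, was at 213.5 ± 3.1 and 219.7 ± 8.4 CPM (0.462). PTGS2, encoding cyclooxygenase 2, was at 1.44 and 1.62 CPM (0.504). VEGFA, a vascular growth factor, was at 77.9 ± 2.0 and 82.1 ± 8.7 CPM (0.400), and was called higher without GSK-A1 replicate 2 (0.16, edgeR adjusted p = 1.97e-04).

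The list with the highest share of calls was that of circadian clock genes, the system through which CIRBP is best known at body temperature. Of 17 genes, 10 were called by edgeR, 5 higher and 5 lower (58.8% against 22.9% of all genes), with a median log2 change of 0.02. The list was chosen with earlier results of these data known, so this share is a description only. The calls numbered 7 to 10 when any 1 library was left out, and those over all genes 2163 to 4890. Output factors of the PAR bZIP family were lower. TEF had 10.1, 10.5 and 10.5 CPM with DMSO and 6.48, 6.56 and 6.96 CPM with GSK-A1, and fell by 0.64 on the log2 scale (SE 0.07, edgeR adjusted p = 2.14e-05). DBP had 12.6, 12.6 and 12.4 CPM with DMSO and 8.43, 7.91 and 8.79 CPM with GSK-A1, and fell by 0.58 (SE 0.07, edgeR adjusted p = 2.93e-05). The third member, HLF, singled out after its value was seen, changed by -0.53 ± 0.12 from 3.63 to 2.52 CPM (edgeR adjusted p = 0.00391). In all 3 genes each treated library lay below each control, as was so for 20.4% of all tested genes.

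The repressor PER3 had the most negative log2 change of the list, with 4.275, 4.396 and 4.86 CPM in DMSO and 2.64, 2.17 and 2.55 CPM in GSK-A1 (-0.86 ± 0.11, SE, edgeR adjusted p = 7.69e-05). PER1 and PER2, its paralogs, were not called (-0.02 ± 0.11 and -0.14 ± 0.14, edgeR adjusted p = 0.931 and 0.513). CLOCK, whose mRNA CIRBP binds, had 34.6, 33.1 and 34.2 CPM with DMSO and 37.1, 39.3 and 38.6 CPM with GSK-A1. It rose by 0.17 ± 0.05 (edgeR adjusted p = 0.0139), and lost the call without DMSO replicate 2 (0.0825) or DMSO replicate 3 (0.0541). Its partner BMAL1 was at 7.19 ± 0.31 and 7.32 ± 0.26 CPM (SD, n = 3; 0.02 ± 0.08, 0.872). The repressors BHLHE41 (0.31 ± 0.07, 0.00361) and CRY1 (0.21 ± 0.05, 0.00603) and the receptor RORA (0.29 ± 0.06, 0.00273) rose. CRY2, the paralog of CRY1 and singled out after its value was seen, fell from 4.83 to 3.93 CPM (-0.29 ± 0.10, edgeR adjusted p = 0.0414), a call lost in 8 of 14 alternatives (adjusted p 0.0503 to 0.133). Depth limits this list in part, since several of its members were under 10 CPM.

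**Figure D4:**
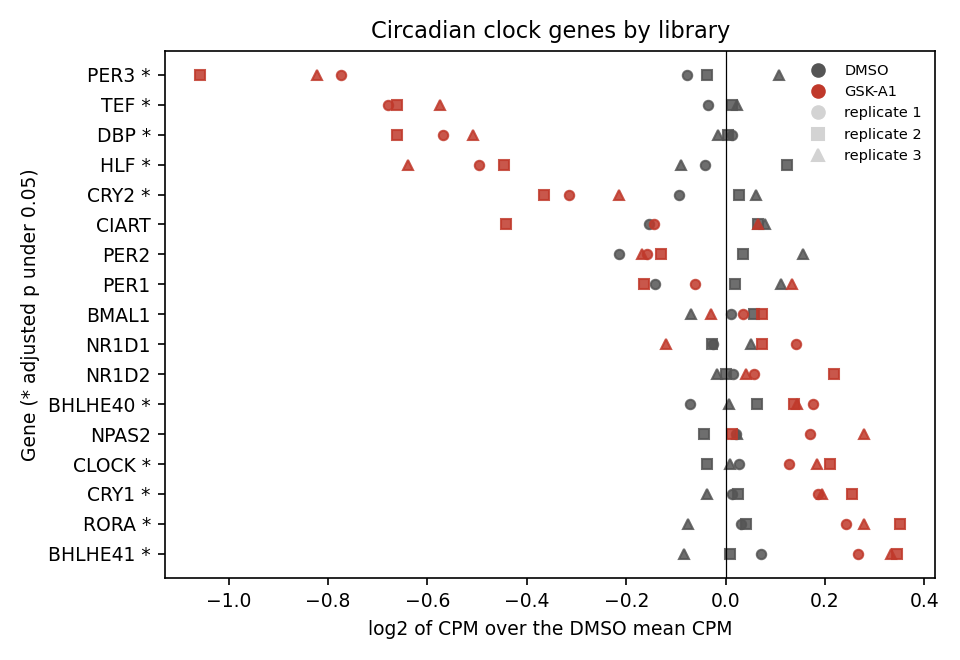
Each of 17 circadian clock genes in every library, as log2 of its CPM over the mean CPM of the DMSO libraries, DMSO in grey and GSK-A1 in red, with marker shapes for replicates and a star for an adjusted p under 0.05. PER3, TEF, DBP and HLF sit well to the left of 0 in all 3 treated libraries, while CLOCK, CRY1, RORA and BHLHE41 sit to the right.

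Heat shock genes are known to move opposite to the cold-inducible pair when temperature changes. Of 20 listed, 19 were tested, and edgeR called 4 higher and 1 lower (26.3%, near the 22.9% of all genes), with a median log2 change of 0.05. HSF2, a heat shock transcription factor, had 70.9, 73.8 and 68.2 CPM with DMSO and 79.3, 90.4 and 82.0 CPM with GSK-A1, and rose by 0.24 ± 0.05 (SE, edgeR adjusted p = 0.00299). HSP90AA1, the inducible HSP90 chaperone, rose by 0.14 ± 0.04 (0.0178) and its activator AHSA1 by 0.12 ± 0.04 (0.0221), whereas the HSP40 gene DNAJB1 fell by 0.11 (SE 0.04, 0.0449). Without GSK-A1 replicate 2 the changes were 0.18 for HSF2, 0.09 for HSP90AA1, 0.13 for AHSA1 and -0.09 for DNAJB1. The HSP90AA1 call was lost without any DMSO library (0.0506 to 0.0859) and the AHSA1 call without replicate 2 or 3 of DMSO or replicate 1 of GSK-A1 (0.0737 to 0.127), and both were lost under upper-quartile factors (0.0596 and 0.0994). That of DNAJB1 was lost without any library but GSK-A1 replicate 2 (0.0708 to 0.151), under RLE factors (0.0616), without a count filter (0.144) and with DESeq2 (0.0821). HSF1 was at 81.1 ± 3.1 and 78.2 ± 5.8 CPM (SD, n = 3; edgeR adjusted p = 0.494). The heat-inducible HSPA1B, which shares most of its sequence with HSPA1A, was at 159.9 ± 5.9 and 168.2 ± 5.4 CPM (0.199). The 5 calls became 3 without DMSO replicate 1 or GSK-A1 replicate 1, 1 without DMSO replicate 2 or 3, and 7 without GSK-A1 replicate 2. Over all genes, 3835 calls became 2163, 2674, 2213, 2206 and 4890 in these settings, in the same order.

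**Figure D5:**
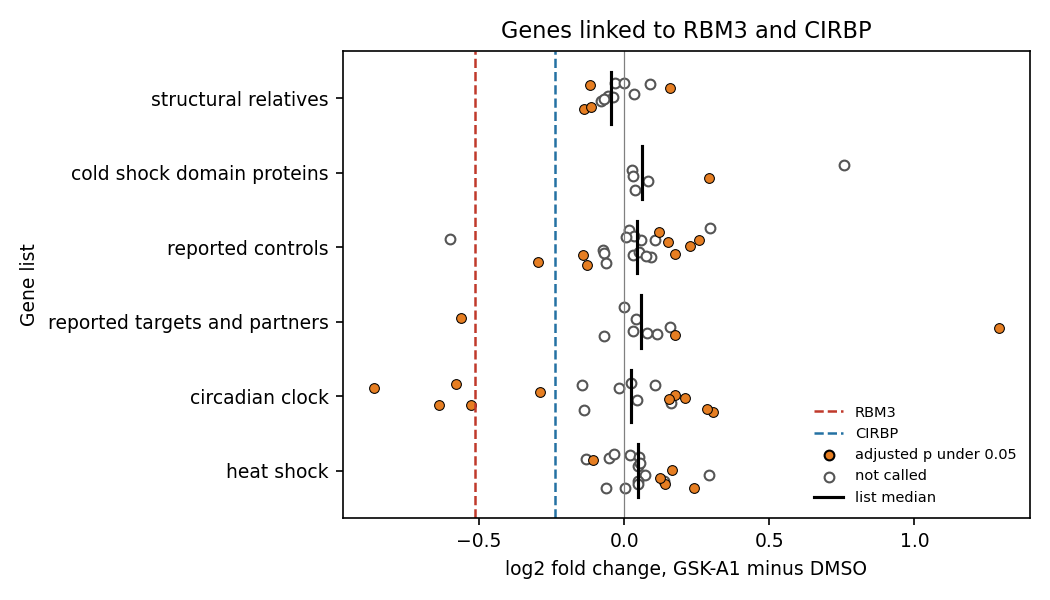
Log2 fold change (GSK-A1 minus DMSO) of every tested member of 6 gene lists, with filled points for an adjusted p under 0.05, open points for genes not called and a black bar at each list's median. The dashed lines give RBM3 at -0.51 and CIRBP at -0.24, and no member of the structural relatives, cold shock domain or heat shock lists lies to the left of either.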

How the data were processed

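Counts of 63140 genes in 6 libraries were used as the authors deposited them, in whole numbers and without normalization. Per the submitters' processing notes, cutadapt 5.1, STAR 2.7.11b, featureCounts, Subread 2.1.1, DESeq2 1.38.0 and GRCh38.p13 were used. The annotation release, strand setting and filters are not given in the sources used here. Genes kept by filterByExpr (smallest count 10, smallest total 15) were fitted with edgeR 4.0.16 (R 4.3.3), using TMM factors, robust dispersions and the quasi-likelihood test. P-values were adjusted by Benjamini-Hochberg over all 16754 genes, with a threshold of 0.05. SE is the log2 coefficient over the root of its F statistic. Counting error is not separated from replicate error, and the libraries carry no molecular identifiers. DESeq2 1.42.0 and limma 3.58.1 were alternatives. The code was tested on counts simulated from these libraries. With the spread drawn from the per-gene dispersion estimates, the share of false calls exceeded the nominal threshold for every seed. With the trended estimates it did so for 1 of 4. Calls with an adjusted p near the threshold may therefore hold more false ones than it states.

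The members and gene lists were chosen with earlier results of these data known. Named list genes are up to 3 called ones per direction by smallest p, and any of the reported controls and targets. The 5 nearest profiles per member, with log2 CPM at a prior count of 2, were named as well. Uncalled members such as RBMX, YBX1, PER1, PER2, BMAL1, HSF1 and HSPA1B, and the notes on neighbouring genes, were chosen after their values were seen. The values of 1 listed gene are not reported here. Annotation came from GENCODE release 29, promoters from RefSeq. Replicate numbers showed little sign of pairing the libraries. Same-numbered deviations correlated at 0.011, 0.019 and 0.032 across genes, and differently numbered ones at -0.033 to 0.012. Such weak correlations over all genes cannot exclude a pairing.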

Additional observations from a re-analysis of the deposited data

How the results depend on the processing

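Both members kept their direction in all 14 alternatives. RBM3 ranged from -0.56 to -0.49 on the log2 scale, moving by more than the replicate spread only under upper-quartile factors (-0.5554). CIRBP ranged from -0.28 to -0.19, and RBM3 minus CIRBP from -0.32 to -0.23. The count over all genes, 3835, was between 2163 and 4890 with 1 library left out. Upper-quartile factors gave 1339 higher and 2688 lower calls against 2007 and 1828. With 1 library left out, list calls ranged over 0 to 7 for structural relatives, 1 to 2 for cold shock domain proteins, 5 to 11 for reported controls and 1 to 7 for heat shock genes. Leaving out GSK-A1 replicate 2 gave the 4890, 11 and both counts of 7, more calls than with all libraries. The cause was not tested. With the replicate number as a block, 4127 genes were called, RBM3 was at -0.5155 and 2 cold shock domain genes were called instead of 1. Because the numbers showed little sign of pairing the libraries, this fit is given as an alternative only. Among the named genes read singly in the alternatives, sign changes were limited to ones that were not called: under upper-quartile factors GSK3A (-0.0252), GSK3B (-0.0116), UPF2 (-0.0062), ELAVL1 (-0.0003) and TXN (-0.0092). Others were not read singly, such as RBMX, YBX1, PER1, PER2, BMAL1, HSF1, HSPA1B, VIM, PAX2, ZNF503 and the further RBM genes named below. UPF3B ranged from -0.0238 to 0.094 with 1 library left out. ATR was positive under RLE factors (0.0061), without a filter (0.0084) and with DESeq2 (0.0063), and ranged from -0.0296 to 0.0224 with 1 library left out.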

Other observations

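RBM3 is one of many genes with an RBM symbol, most of them RNA-binding proteins of splicing and mRNA processing. This set was drawn up by symbol after the values had been seen. Of the 41 tested genes other than RBM3, edgeR called 4 higher and 10 lower with GSK-A1 (34.1%, against 22.9% of all genes), although their median log2 fold change was 0.05. With RBM3 included the calls numbered 15, against 7, 8 and 9 without DMSO replicates 1, 2 and 3 and 20 without GSK-A1 replicate 2. Over all genes, 3835 calls became 2163, 2213, 2206 and 4890 in these settings, in the same order. Only RBM43, at a low level, had a more negative log2 fold change than RBM3 (-0.78 ± 0.24, SE, edgeR adjusted p = 0.0258). RBM45 (-0.39 ± 0.07, 0.00121), RBM4B (-0.26 ± 0.07, 0.0127), RBM10 (-0.20 ± 0.04, 0.00344) and RBM14 (-0.20 ± 0.04, 0.00389) fell as well. RBM11 (0.27 ± 0.07, 0.0118), RBM48 (0.23 ± 0.07, 0.0287) and RBM15 (0.20 ± 0.05, 0.00756) rose. The alternatives were not read for these genes singly, so which of their calls hold with a library left out is not given.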
